A study of Mus musculus with 196 samples.

Results

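The integrin and laminin genes of mouse skin were described across dorsal and tail skin, hair cycle states and sexes. Members were the genes whose symbol starts with Itga or Itgb followed by a digit, v, l, m or d, or with Lama, Lamb or Lamc followed by a digit, and each was read from the probe set with the highest mean among those that name no other gene. This gave 38 of 18820 genes: 16 integrin alpha subunits, 9 integrin beta subunits, 10 laminin chains and 3 genes that the rule takes in by their symbols although they are no subunits (Itgb1bp1, Itgb1bp2 and Itgbl1). Itgae and Itgax were not among the members. Expression had been measured on Affymetrix arrays in 196 skin samples of 100 mice. All animals were untreated, 8 weeks old and of mixed ancestry: each had an FVB/N father and a hybrid mother, whose own parents were an FVB/N female and a Mus spretus male. The labels put 85 dorsal arrays (41 from females, 44 from males) in the non-anagen group and 14 (8 from females, 6 from males) in the anagen group, anagen being the growth phase of the hair cycle, and 97 arrays (48 from females, 49 from males) were of tail skin. Tails carried no hair cycle label of their own. Each backcross animal carries its own mix of alleles, so the spread within a group includes inherited differences, and genotypes were not used here.

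Integrins are receptors made of 1 alpha and 1 beta subunit that fix cells to the matrix around them. Laminins are the trimers of an alpha, a beta and a gamma chain from which basement membranes are built, the sheets under the epidermis and around hair follicles, vessels, nerves and muscle fibres. In the epidermis, Itga6 and Itgb4 form the integrin of the hemidesmosome, the rivet that ties basal keratinocytes to the basement membrane, to which Lama3 and Lamb3 contribute laminin chains, while Itga2 and Itga3 pair with Itgb1 in the same cells. Smooth muscle, fibroblasts, platelets and leukocytes each use other pairs, so in whole skin the members report on many cell types at once.

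Values are log2 expression after RMA (robust multi-array average), on which a difference of 1 is a factor of 2, and the level of 1 gene cannot be set against that of another. The deposited array medians lay between 5.67 and 6.03 in the 3 groups. The labels' batch 1 held 75 non-anagen and 14 anagen arrays, batch 2 held 10 non-anagen arrays, and tail arrays made up batches 3 (3 arrays) and 4 (94 arrays). No batch held both tissues, and their effects cannot be told apart. The anagen label was checked on 6 hair shaft and sheath genes: their mean was 4.86 to 6.40 in non-anagen arrays and 6.52 to 12.41 in the 14 anagen arrays, all of which lay above the non-anagen range, and in tails it was 6.29 to 11.82. The mean of 4 basal keratinocyte genes had a median of 11.31 in non-anagen dorsal, 11.21 in anagen dorsal and 11.38 in tail skin. The 5 arrays least correlated with the mean of their group (2 anagen, 1 non-anagen and 2 tail, with a lowest r of 0.958) were kept. They were taken by rank, and a gap to the other arrays was not tested. Calls of members that were lost without these 5 arrays are named beside the result.

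Between tail and non-anagen dorsal skin the members differed mostly by less than a factor of 2. Itga8 and Lama1 were lower in tail skin by more than that, and no member was higher by that much. With limma and Benjamini-Hochberg adjustment over all genes (adjusted p under 0.05 and at least 2 times), 2 of 38 members were called lower, beside 2.02% of all genes, and 0 of 38 higher, beside 3.94% of all genes. Without the size limit, 17 members were higher and 14 lower, beside 43.7% and 43.4% of all genes, so most genes of the array passed. Over all genes, 741 were called higher and 381 lower at 2 times; this split was 560 and 529 after a shift to equal array medians and 538 and 525 after quantile normalization of all arrays. The median absolute difference was 0.25 over the members and 0.30 over all genes. The arrays of the groups overlapped for every member, while 1.9% of all genes had ranges that did not overlap.

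**Figure D1:**
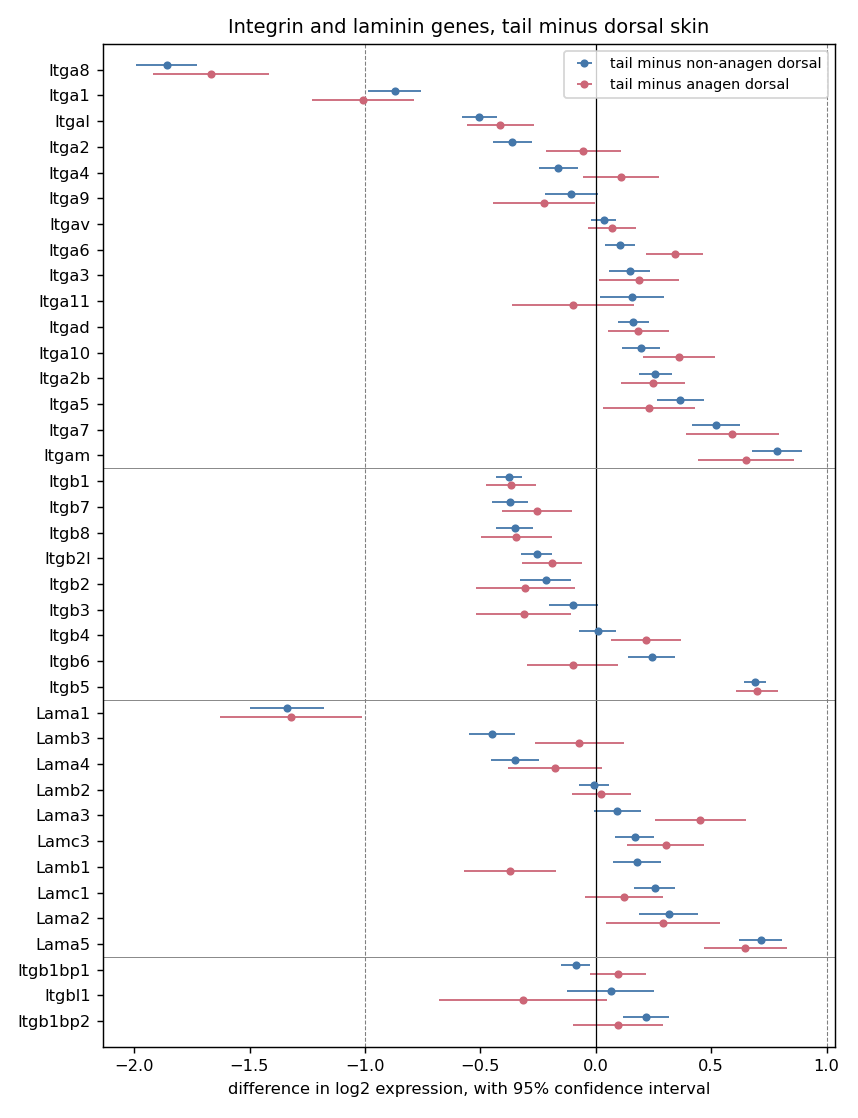
Difference in log2 expression between tail and dorsal skin (x axis) for each of the 38 members (y axis), with integrin alpha subunits, integrin beta subunits, laminin chains and the 3 other members from top to bottom. Points are fitted differences and bars 95% confidence intervals, against non-anagen (blue) and anagen (red) dorsal skin, and dashed lines mark a factor of 2; Itga8 and Lama1 lie beyond it on the left in both comparisons and Itga1 in the anagen one.

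Itga8, whose product pairs with Itgb1 and binds nephronectin at the anchorage of the hair erector muscle, had the largest difference of the members. Its lowest, median and highest values were 5.51, 7.77 and 8.45 in non-anagen dorsal skin, 6.53, 7.39 and 8.33 in anagen dorsal skin and 5.08, 5.77 and 6.89 in tail skin. All tail arrays were therefore below the dorsal medians, and the tail and non-anagen ranges overlapped between 5.51 and 6.89. The tail minus non-anagen difference was -1.86 (SE 0.07, 3.63-fold, limma adjusted p = 5.77e-69), and Itga8 was lower in the tail of 81 of the 82 mice with a tail and a non-anagen dorsal array, the mice over which such counts are given.

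Smooth muscle markers moved with Itga8: all 6 were lower in tail skin at any size and 5 at 2 times, among them Myh11 (-3.25), Des (-3.50) and Cnn1 (-3.02). Their mean was 8.17 to 9.86 in non-anagen dorsal, 8.46 to 9.84 in anagen dorsal and 5.95 to 7.97 in tail skin, so here the groups did not overlap. Across the 85 non-anagen dorsal arrays, Itga8 correlated with this mean at r = 0.86. Its most similar genes over these dorsal arrays were Cald1, Acta2 and Myh11 (r = 0.83 for each). Across the 97 tail arrays r with the mean was 0.58. With the fibroblast marker mean, r of Itga8 was 0.68 in non-anagen dorsal and 0.48 in tail skin. Whether the smooth muscle content of the samples accounts for the Itga8 difference was not tested, and in these bulk samples fewer cells of a type and less RNA per cell cannot be told apart. Among the known ligands of Itga8, Npnt had a difference of 0.03 (adjusted p = 0.553) and Egfl6, over both sexes, of -0.27 (adjusted p = 0.0193). The Egfl6 mean was 6.61 in non-anagen dorsal and 5.93 in tail skin of females. In males it was 5.27 and 5.39, so it was not lower in the tail of males.

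Lama1, a laminin alpha chain best known from embryonic basement membranes, was the other called member. Its lowest, median and highest values were 5.16, 6.46 and 8.07 in non-anagen dorsal, 5.16, 6.37 and 7.87 in anagen dorsal and 4.48, 5.05 and 6.20 in tail skin. The tail median lay below the median of every array, the lowest of which was 5.67. The ranges overlapped widely, yet Lama1 was lower in the tail of 82 of 82 mice. The difference was -1.34 (SE 0.08, 2.53-fold, limma adjusted p = 6.89e-38).

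Itga1, a collagen-binding partner of Itgb1 on fibroblasts and smooth muscle, came next. It had values of 4.91, 6.28 and 6.95 (lowest, median, highest) in non-anagen dorsal, 5.14, 6.43 and 6.93 in anagen dorsal and 4.21, 5.38 and 6.36 in tail skin. It was lower in tail skin by -0.87 (SE 0.06) against non-anagen dorsal skin, in 79 of 82 mice, and so fell short of 2 times. The tail median of Itga1 also lay below the median of every array. Itgb1, the shared partner of Itga1, Itga8 and many other alpha subunits, was lower in tail skin by -0.37 (SE 0.03, adjusted p = 3.1e-28) in 77 of 82 mice. Its second probe set gave -0.21 (adjusted p = 1.72e-08), the same direction.

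**Figure D2:**
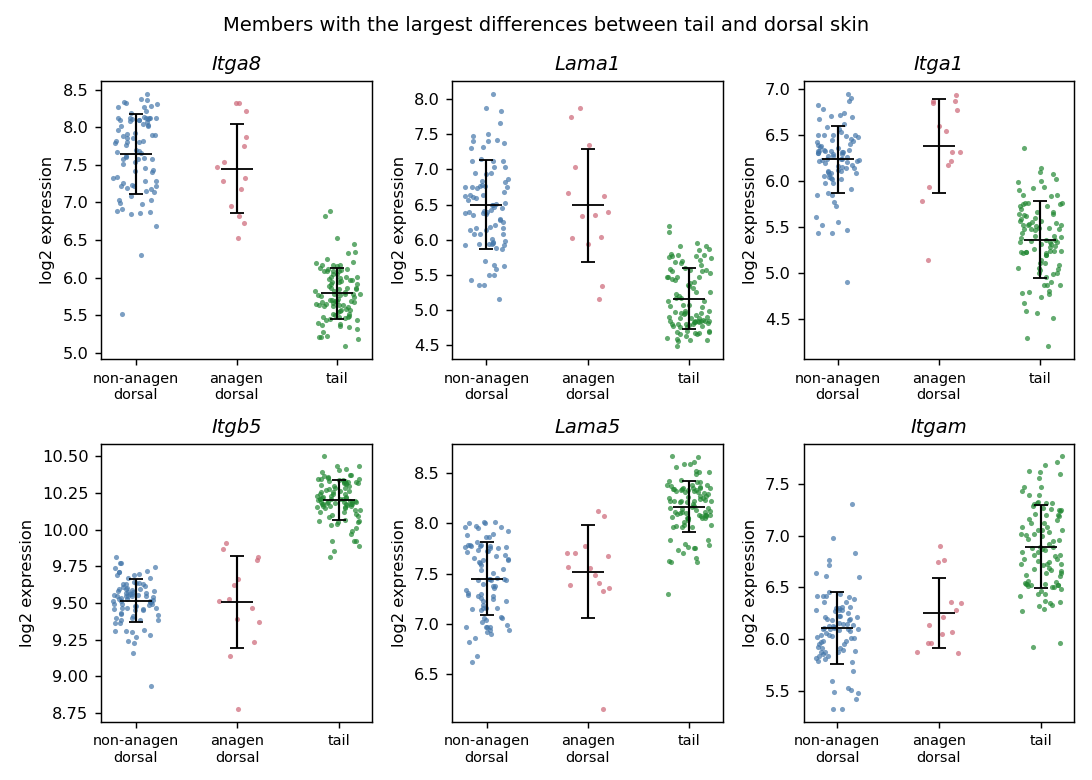
Log2 expression (y axes, not starting at 0) of the members with the largest tail and dorsal differences in each array of the 3 groups (x axis). Points are arrays, long horizontal lines group means and bars 1 SD; Itga8, Lama1 and Itga1 are lower and Itgb5, Lama5 and Itgam higher in tail skin, with overlapping ranges in every panel.

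On the other side, the members that were highest in tail skin relative to dorsal skin were Itgam, Lama5 and Itgb5. Itgb5, the beta subunit that joins Itgav in a vitronectin receptor, was higher in the tail of 82 of these 82 mice: its lowest, median and highest values were 8.93, 9.53 and 9.81 in non-anagen dorsal, 8.78, 9.52 and 9.91 in anagen dorsal and 9.81, 10.21 and 10.50 in tail skin. The tail range began at the upper end of the non-anagen range. The difference was 0.69 (SE 0.02, 1.61-fold, adjusted p = 1.67e-70), with Itgav itself at 0.03 (adjusted p = 0.244). Lama5, the alpha chain of the laminins under most adult epithelia and vessels, was at 6.62, 7.45 and 8.02 in non-anagen dorsal, 6.16, 7.56 and 8.12 in anagen dorsal and 7.29, 8.21 and 8.66 in tail skin. It was higher in tail skin by 0.71 (SE 0.05, adjusted p = 1e-33) in 78 of 82 mice, while its trimer partners stood at 0.25 (Lamc1, 0.042 and not called under quantile normalization), 0.18 (Lamb1) and -0.01 (Lamb2, adjusted p = 0.81).

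The 250 bases before the annotated start are shown for 4 members described here in detail, Itga8, Lama5 and Itgb5 for their tissue differences and Lamb1 for its anagen difference, picked with these values known, from the RefSeq promoter table (GRCm38.p6); 25 of the 38 members have 1 or more entries, 28 in all. Itga1 and Itgam, with larger tissue differences than Lama5 and Itgb5, have entries too and are not shown. Each is written 5′ to 3′ on the strand of its gene, with matches to the GC box (GGGCGG on either strand) in capitals.
Itga8, chr2:12301945-12302194, minus strand: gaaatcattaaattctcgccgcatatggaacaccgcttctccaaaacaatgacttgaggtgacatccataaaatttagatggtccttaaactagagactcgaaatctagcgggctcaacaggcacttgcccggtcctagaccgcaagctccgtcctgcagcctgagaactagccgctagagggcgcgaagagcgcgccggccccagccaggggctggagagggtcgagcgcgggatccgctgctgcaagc
Lama5, chr2:180225860-180226109, minus strand: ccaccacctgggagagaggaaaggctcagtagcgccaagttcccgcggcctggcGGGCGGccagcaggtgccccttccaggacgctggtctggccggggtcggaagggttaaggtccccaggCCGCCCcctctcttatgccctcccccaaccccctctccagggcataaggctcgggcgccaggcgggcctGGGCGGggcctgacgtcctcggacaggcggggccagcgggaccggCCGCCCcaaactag
Itgb5, chr16:33829415-33829664, plus strand: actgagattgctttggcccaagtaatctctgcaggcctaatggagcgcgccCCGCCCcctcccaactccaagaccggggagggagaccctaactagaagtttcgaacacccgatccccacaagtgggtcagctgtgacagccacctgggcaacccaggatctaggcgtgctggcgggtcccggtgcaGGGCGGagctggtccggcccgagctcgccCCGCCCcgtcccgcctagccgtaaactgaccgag
Lamb1, chr12:31265043-31265292, plus strand: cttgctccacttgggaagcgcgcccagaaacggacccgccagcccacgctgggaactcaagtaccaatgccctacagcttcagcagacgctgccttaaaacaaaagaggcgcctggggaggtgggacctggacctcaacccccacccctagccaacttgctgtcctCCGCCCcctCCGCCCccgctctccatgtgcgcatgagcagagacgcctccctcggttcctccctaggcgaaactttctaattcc
The windows of Lama5, Itgb5, Lamb1 and Itga8 hold 4, 3, 2 and 0 GC boxes. Of the other members called higher in tail skin at any size, Itga3 (1 and 3 in separate entries), Itga5 (2) and Itgam (1) hold GC boxes. Itga10, Itga11, Itga2b, Itgb6 and Lama2, also called higher, hold 0. Of those called lower, Itgb1 and Itga4 hold 1 each, and Itga1, Itga2, Itgb1bp1, Itgb2l, Itgb7, Itgb8 and Lamb3 hold 0. The remaining called members have no entry. Whether the count goes with the direction of the tissue difference was not tested. Of the 28 member windows, 10 hold a GC box, beside 32.7% of the 32851 windows in the table. Matches on either strand to TGANTCA (AP-1) were in 0 of 28 and 6.75% of all windows, and matches to TATAAA were in 0 of 28 and 12.4%. The CArG box, the element bound by serum response factor, was in 2 of 28 (Lama2 and Itgb6) and 1.47% of all windows. TATAAA can lie inside a CArG box, and no other of these motifs contains another. These matches describe the letters of the windows alone.

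Of the epidermal members, Lamb3 and Itga2 were lower in tail than in non-anagen dorsal skin, as was Itgb1, described above. Itga3, Itga6, Itgb4 and Lama3 differed by at most 0.15. Itgb4 had a difference of 0.01 (95% confidence interval -0.07 to 0.09), Itga6 of 0.10, Lama3 of 0.09 (adjusted p = 0.0836) and Itga3, a laminin receptor, of 0.15. The sign of Itga6 depended on the scaling of the arrays: it was -0.032 after a shift to equal array medians, which lowers the median difference of all genes to -0.14, and -0.00613 after quantile normalization of all arrays. Lamb3 was lower in tail skin by -0.45 (SE 0.05, adjusted p = 1.58e-15) in 72 of 82 mice, with 7.54, 8.59 and 9.21 in non-anagen dorsal and 6.81, 8.14 and 8.75 in tail skin, and Itga2, a collagen receptor of basal keratinocytes, by -0.36 (SE 0.04) in 68 of 82 mice. Of the basal keratinocyte markers beside them, Krt14 (0.57) and Krt5 (0.12) were higher in tail skin and Trp63 (-0.17) and Col17a1 (-0.25) lower.

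Among the laminin chains of the dermis and of vessels, Lama4, the chain of vessel walls and adipocytes, was lower in tail skin by -0.35 (SE 0.05) and Lama2, the chain of muscle and nerve sheaths, higher by 0.32 (SE 0.07). The endothelial markers Pecam1 (-0.43), Cdh5 (-0.68) and Kdr (-0.28) were lower in tail skin and Tek was not called (0.09), and all 6 skeletal muscle markers were lower at 2 times (Myh4 by -2.97). The muscle integrin Itga7 was higher, by 0.52 (SE 0.05) in 70 of 82 mice, with 4.71, 5.76 and 6.61 in non-anagen dorsal and 5.33, 6.24 and 7.15 in tail skin. Itga7 and the skeletal muscle markers thus stood on opposite sides. Itga5, the fibronectin receptor subunit, was higher by 0.37 (SE 0.05). Itga10 (0.20), Itga11 (0.16), Lamc3 (0.17) and Itgb6 (0.24) were called higher at any size, and Itgb8 (-0.35) lower. Many of these small differences depended on the scaling. Under quantile normalization Itga3, Lamb1 and Lamc3 turned to -0.075, -0.049 and -0.058, and Lama2 (0.093, adjusted p = 0.179), Lamc1 (0.042, 0.364), Itgb6 (0.027, 0.624) and Itga11 (0.0078, 0.922) lost their calls. Under equal array medians Itga3, Itga11, Lamb1, Lamc3 and Itga10 were no longer called, with adjusted p of 0.829, 0.778, 0.441, 0.501 and 0.143. Itga9 (-0.10) and Itgb3 (-0.10) were not called.

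The leukocyte members did not all lie on 1 side. Itgam, the alpha subunit of the complement receptor of macrophages and neutrophils, was at 5.32, 6.11 and 7.31 in non-anagen dorsal, 5.87, 6.18 and 6.90 in anagen dorsal and 5.93, 6.88 and 7.77 in tail skin. It was higher in tail skin by 0.78 (SE 0.05, 1.72-fold, adjusted p = 1.46e-31), in 77 of 82 mice. Itgal, the alpha subunit of the lymphocyte adhesion receptor, was lower by -0.50 (SE 0.04) in 76 of 82 mice, and so were Itgb7 (-0.37), Itgb2 (-0.22), the partner of both Itgal and Itgam, and Itga4 (-0.16). The tail medians of Itgal (5.31) and Itgb7 (5.35) lay below the median of every array.

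Markers of the cells that carry the leukocyte members moved too. Of the 4 general leukocyte markers Ptprc, Cd52, Coro1a and Laptm5, 3 were lower in tail skin, 2 of them at 2 times, and 0 were higher. Their median difference was -0.82. All 4 T cell markers were lower in tail skin at 2 times, Cd3g by -3.74 and Cd3e by -2.55, and their mean was 6.45 to 8.18 in non-anagen dorsal and 4.26 to 5.62 in tail skin. Of 4 macrophage markers, Cd68 (0.64), Cd14 (0.66) and Csf1r (0.23) were higher and Adgre1 (-0.82) lower, with list means of 6.16 to 7.96 and 6.17 to 7.63. Of 4 neutrophil markers, S100a8 (1.00) and S100a9 (1.24) were higher and Mpo (-1.44) and Elane (-0.39) lower. Their part in the differences of Itgam and Itgal was not tested. Itga2b, the platelet subunit, was higher by 0.26 (SE 0.04), with the platelet marker Pf4 higher by 1.11, Ppbp by 0.32 and Gp9 lower by -0.16. Itgad (0.16) and Itgb2l (-0.26), both leukocyte subunits, had medians of 4.19 to 4.78 in the 3 groups, below the median of every array, and Itgad was not called under equal array medians (0.027, adjusted p = 0.491).

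Of the 3 members that are no subunits, Itgb1bp1, which binds the tail of Itgb1 inside the cell, differed by -0.09 and Itgb1bp2, a muscle protein, by 0.22 (0.081 under equal array medians, adjusted p = 0.124). The group medians of Itgb1bp2, 5.31 to 5.57, lay below the median of every array. Itgbl1, a secreted protein with integrin-like repeats, differed by 0.06 (adjusted p = 0.525).

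Tail skin was also set against anagen dorsal skin. Itga8 (-1.67), Lama1 (-1.32) and Itga1 (-1.01) were called lower, 3 of 38 beside 1.69% of all genes, and 0 of 38 were called higher, beside 3.33%. With the replicate block as differences within each of 14 mice, Lama1 stood at -0.98 (limma adjusted p = 1.1e-09) and so fell just short of 2 times. At any size, 14 members were higher and 11 lower, beside 38.8% and 34.9% of all genes. With differences within mice, Itga3, Itga5, Itgad, Lama2, Itgb2 and Itgb2l were not called (limma adjusted p = 0.116, 0.0955, 0.0822, 0.173, 0.0566 and 0.139). All genes split into 627 higher and 318 lower at 2 times, into 447 and 439 under equal array medians and into 425 and 434 under quantile normalization. The comparison shares the tail arrays with that against non-anagen skin. The values of Itgb5 (0.70), Lama5 (0.65), Itgam (0.65) and Itga7 (0.59) lay close to those against non-anagen skin. Lamb3 (-0.07), Itga2 (-0.05) and Lama3 (0.45) did not, and Lamb1 was -0.37 against anagen and 0.18 against non-anagen dorsal skin. Itga3 (0.19) and Itga5 (0.23) turned to -0.043 and -0.0091 after quantile normalization of all arrays. In that setting Itga2b, Itgb4, Lama2, Lamc3 and Itgb2l were not called either (limma adjusted p = 0.287, 0.691, 0.687, 0.469 and 0.0624). Under equal array medians Itga2b, Itga3, Itga5, Itgad, Itgb4, Lama2 and Lamc3 lost their calls (limma adjusted p = 0.161, 0.622, 0.41, 0.578, 0.309, 0.272 and 0.0771). Without the 5 arrays that stood apart, Itga3 (0.16, limma adjusted p = 0.111), Itga5 (0.22, 0.0551), Itgb4 (0.15, 0.0879) and Lama2 (0.29, 0.0515) were not called.

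The genes around the members were a list of 44 basement membrane, hemidesmosome and focal adhesion genes, of which 39 were measured. At 2 times, 4 of 39 were called higher in tail than in non-anagen dorsal skin (3.94% of all genes) and 0 lower (2.02%). These were Fras1 (2.82), which holds the epidermis to the dermis through the Fraser complex, Nid1 (1.13), the nidogen that links laminin to collagen IV, the matrix protein Tnc (1.06) and the laminin receptor Dag1 (1.03). Fras1 and Dag1 were higher in the tail of 82 of 82 mice. At any size, 16 of 39 were higher and 14 lower, beside 43.7% and 43.4% of all genes, so these any-size counts are no more than the background. The lower ones include the integrin activators and linkers Fermt2 (-0.67), Ilk (-0.62) and Tln1 (-0.42) and the hemidesmosome plakin Dst (-0.48). Other focal adhesion genes of the list went the other way. Within mice, tail minus non-anagen dorsal, Tln2 had a mean difference of 0.41 (higher in 75 of 82 mice) and Pxn of 0.36 (69). Vcl had 0.25 (70) and Parva 0.24 (60).

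Anagen changed few members of dorsal skin. Compared with non-anagen dorsal skin (limma with sex and batch, adjusted p under 0.05 at any size), 1 of 38 was higher, beside 4.11% of all genes, and 4 of 38 were lower, beside 3.59%. Lamb1, the beta chain of most laminins of vessels and dermis, was the 1 that rose: its lowest, median and highest values were 6.26, 7.21 and 8.09 in non-anagen and 5.82, 7.75 and 8.89 in anagen skin, a difference of 0.56 (SE 0.13, adjusted p = 0.00142). Of the 14 anagen arrays, 5 lay above and 1 below the non-anagen range. Lamb1 passed in each of 14 fits that left out 1 anagen array in turn, with differences of 0.47 to 0.70.

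The 4 members that fell were Lamb3 (-0.39, SE 0.11, adjusted p = 0.0107), Lama3 (-0.37, SE 0.10, adjusted p = 0.0128), Itga2 (-0.33, SE 0.09, adjusted p = 0.0141) and Itga6 (-0.25, SE 0.07, adjusted p = 0.0122). Itga6 had values of 9.95, 10.60 and 10.96 in non-anagen and 9.25, 10.37 and 10.88 in anagen skin, and Lama3 of 7.92, 8.69 and 9.30 and of 7.04, 8.29 and 9.31. Of the 14 anagen arrays, 3 lay below the non-anagen range for Itga2, 2 for Itga6, 2 for Lama3 and 1 for Lamb3, and 1 lay above it for Lama3. Itgb4, the partner of Itga6, stood at -0.23 (adjusted p = 0.0896) and was not called, and Itgb6 (0.33) and Itga4 (-0.26) did not pass either.

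These 4 decreases rested on few arrays. Without the 2 anagen arrays among the 5 that correlated least with their group, 0 members were lower and 2 higher. Lamb3 then stood at -0.25 (adjusted p = 0.213) and Itga6 at -0.16 (adjusted p = 0.2). Over all genes, this setting took lower calls from 676 to 201 and higher calls from 774 to 632. Leaving out 1 of these arrays, number 11, was enough to give 0 lower members: it had the lowest values of Itga6 (9.25), Lama3 (7.04) and Lamb3 (7.10) of the anagen group and a hair marker mean of 12.31. Leaving out array 9 left 1 lower member, and over the 14 arrays left out in turn there were 0 to 5 lower and 1 to 2 higher members. Of these 14 fits, Itga2 passed in 11, Itga6 and Lamb3 in 12 each and Lama3 in 13. Of the 4 basal keratinocyte markers, Col17a1 fell with them (-0.29, adjusted p = 0.0271), while Krt5 (0.00), Krt14 (0.13) and Trp63 were not called. The 4 markers had a median difference of -0.055, and 1 of the 4 differences was above 0.

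**Figure D3:**
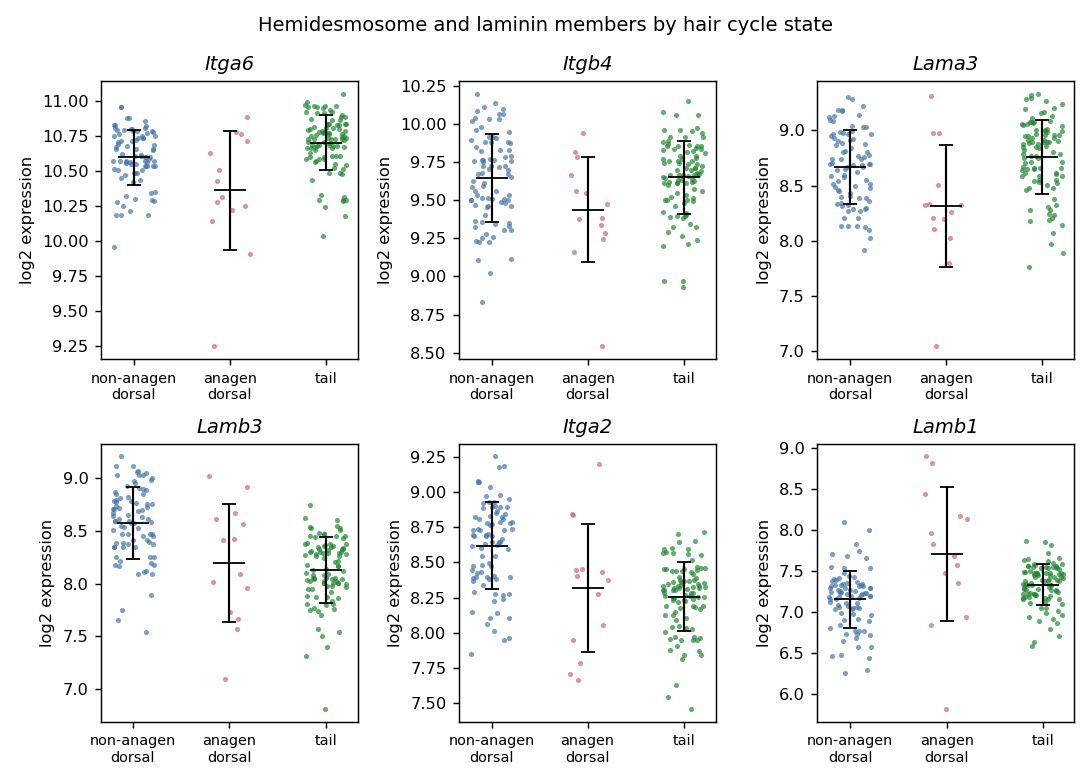
Log2 expression (y axes, not starting at 0) of Itga6, Itgb4, Lama3, Lamb3, Itga2 and Lamb1 in each array of the 3 groups (x axis). Points are arrays, long horizontal lines group means and bars 1 SD; of the 14 anagen arrays, 5 lie above the non-anagen range for Lamb1 and 3 lie below it for Itga2.

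Of the 39 other genes of the list, 8 rose in anagen, beside 4.11% of all genes, and 3 fell, beside 3.59%. Those that rose included Tnc (0.96, adjusted p = 9.72e-06), Fn1 (0.65), Fras1 (0.52), the netrin Ntn4 (0.45), which binds laminin, and Col4a1 (0.37), a chain of the common collagen IV network. Dst (-0.36), Col17a1 (-0.29) and Col4a4 (-0.21) fell. Dst and Col17a1 are components of the hemidesmosome. Plec and Cd151, of the same list, were not among those that fell, with means of 9.32 and 9.23 in non-anagen and 9.16 and 9.31 in anagen skin. Without the 2 anagen arrays described above, lower calls over all genes went from 676 to 201. Whether Dst, Col17a1 and Col4a4 still passed in that setting is not given here.

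The tails of the same mice gave no such call. When tails were grouped by the label of the dorsal skin of their mouse (anagen or not), 0 of 38 members were called higher and 0 lower, beside 0% of all genes in each direction; 1 member and 796 of all genes had an unadjusted p under 0.05. A test of the difference between the effects (dorsal minus tail) called Lamb1 higher (0.60, SE 0.15, adjusted p = 0.00472), 1 of 38 beside 2.57% of all genes, and Lamb3 lower (-0.48, SE 0.14, adjusted p = 0.0277), 1 of 38 beside 1.25%. All genes split into 483 higher and 235 lower, into 440 and 376 under equal array medians and into 510 and 351 under quantile normalization. Lamb3 missed the threshold without the 5 arrays least like their group and without the sex term (adjusted p = 0.0631 and 0.0566), with differences of -0.46 and -0.45 about as large.

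Females and males were compared within each tissue. In non-anagen dorsal skin 4 of 38 members were higher in females, beside 9.84% of all genes, and 3 were lower, beside 8.89%. The largest was Itgbl1: its lowest, median and highest values were 6.10, 7.60 and 9.05 in females and 6.34, 8.63 and 10.14 in males, a female minus male difference of -0.83 (SE 0.13, adjusted p = 2.08e-07). Lama2 (-0.29) and Lamc3 (-0.20), a chain of nerves and vessels, were also lower in females, and Itga2 (0.18), Itgb8 (0.18), Itga2b (0.15) and Itgav (0.15) higher.

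This fit shared 1 estimate of the spread between the tissues. With dorsal arrays alone only Itgav was called higher and only Itgbl1 lower in females, and with tail arrays alone 1 member was lower. Under equal array medians 1 member was higher and 8 were lower, and all genes went from 1851 higher and 1674 lower to 889 and 2633 (1617 and 2349 under quantile normalization). The fibroblast markers moved with Itgbl1: Col1a1 (-0.98) and Lum (-0.57), 2 of 4, were called lower in females, and the list had a median difference of -0.40, and the genes most like Itgbl1 over dorsal arrays were Ccdc80, Ppic and the collagen cross-linking enzyme Lox (r = 0.92, 0.92 and 0.91). All 4 endothelial markers (median difference -0.47) and 3 of 6 smooth muscle markers (list median -0.36) were also called lower in females. The part of all these genes in the Itgbl1 difference was not tested.

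In tail skin 0 of 38 members were called higher in females, beside 0.696% of all genes, and 0 lower, beside 0.361%, although 9 had an unadjusted p under 0.05. The tail medians of Itgbl1 were 8.20 in females and 8.06 in males. In the test of the difference between the sex effects (tail minus dorsal), 2 of 38 members were higher, beside 3.97% of all genes, and 2 lower, beside 3.76%. These were Itgbl1 (1.02, SE 0.18, adjusted p = 2.61e-05) and Itga7 (0.35, SE 0.11, adjusted p = 0.0227), and Itgav (-0.19, SE 0.05, adjusted p = 0.0161) and Lamb3 (-0.31, SE 0.10, adjusted p = 0.0414). Over all genes the split of 747 higher and 707 lower became 1009 and 401 under equal array medians and 1009 and 622 under quantile normalization. With differences taken within each mouse, the replicate block of this design, Itga7 gave 0.32 (adjusted p = 0.0901). Lamb3 lost its call under equal array medians (-0.27, adjusted p = 0.0702), within batches 1 and 4 (-0.29, 0.0796) and without the 5 arrays that stood apart (-0.26, 0.0734).

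**Figure D4:**
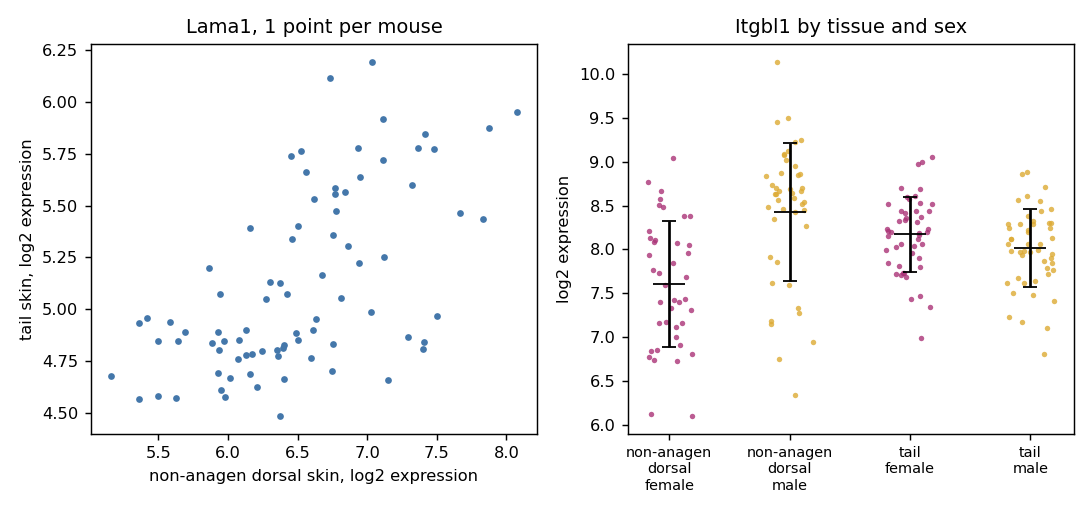
Left, Lama1 in tail skin (y axis, log2) against Lama1 in non-anagen dorsal skin (x axis, log2) for each of 82 mice, which rise together. Right, Itgbl1 (y axis, log2, not starting at 0) by tissue and sex (x axis), where points are arrays, long horizontal lines means and bars 1 SD; the dorsal arrays of females lie lower than those of males, and the tail groups overlap almost fully.

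Because 82 mice had both a tail and a non-anagen dorsal array, each member could be followed from 1 tissue to the other. After adjustment for sex and batch, 2 of 37 members were correlated between the tissues (adjusted over all genes), beside 8.89% of all genes, and the median r was 0.10 over the members and 0.08 over all genes. Lama1 had Pearson's r = 0.63 and Spearman's rho = 0.62 (permutation p = 1e-05 for each, the smallest that 100000 permutations give; adjusted p = 5.41e-05). Without the 2 mice farthest from the dorsal median r was 0.60, and in the 72 mice of batches 1 and 4 it was also 0.60. The tail values were not evenly spread: within the 56 mice of the lower values r was 0.29 and within the 26 of the upper ones 0.27. A cut by the tail values narrows their range, which by itself lowers r, so no conclusion is drawn from these values.

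Itga1 followed with r = 0.35 and rho = 0.28 (permutation p = 0.00146 and 0.0115, adjusted p = 0.0211 for r). Without the 2 mice farthest from the median r was 0.32, within batches 1 and 4 it was 0.35, and without adjustment for sex and batch it was 0.30 and missed the threshold (adjusted p = 0.0638). Lamb1 (r = 0.31, adjusted p = 0.0538) was just outside. Itga8, with the largest tissue difference, had r = 0.18 (adjusted p = 0.405), and Itgb5 r = 0.10 (adjusted p = 0.701). Itgav was given no pooled value, since its tail values fell into a cluster of 9 low mice and 1 of 73 others, within which r was 0.27 and 0.27 (permutation p = 0.481 and 0.019).

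Subunits that form 1 receptor or 1 trimer were also followed together within a tissue, over 22 pairs in each of the 2 tissues and 44 tests in all. In non-anagen dorsal skin 13 pairs were positively and 3 negatively correlated over mice, and in tail skin 21 positively and 0 negatively (permutation tests, adjusted over the 44). After a shift to equal array medians 5 of these 21 tail pairs were not called: Itga3 and Itgb1, Itga2 and Itgb1, Itga4 and Itgb7, Lama5 and Lamc1, and Itga8 and Egfl6 (adjusted p = 0.16, 0.557, 0.0997, 0.101 and 0.0831). Values of a pair come from the same array and share its RNA and its mix of cells. The share of all gene pairs that would pass the same test was not measured. Some called tail pairs ranked far down among the 18819 other genes: Itgb1 ranked 5270 for Itga3 and 5013 for Itga2, and Lamc1 4540 for Lama5.

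The hemidesmosome pair Itga6 and Itgb4 had r = 0.72 and rho = 0.69 over the 85 non-anagen dorsal arrays and r = 0.78 and rho = 0.72 over the 97 tail arrays (permutation p = 1e-05 for each, the smallest possible; adjusted p = 2e-05). Without the 2 mice farthest from the median r was 0.70 and 0.74, and within batch 1 or 4 it was 0.71 and 0.78. Among the 18819 other genes, Itga6 ranked 380 for Itgb4 in dorsal and 13 in tail skin, and Itgb4 ranked 145 and 28 for Itga6. Lama3 and Lamb3 had r = 0.73 and rho = 0.69 in dorsal and r = 0.72 and rho = 0.67 in tail skin, with 0.71 and 0.69 without the 2 farthest mice and 0.76 and 0.72 within the batches.

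The chains that join Lamc1, the usual gamma chain, followed it about as closely. Lama2 and Lamc1 had r = 0.76 in dorsal and 0.83 in tail skin, Lama4 and Lamc1 0.75 and 0.78, Lamb1 and Lamc1 0.72 and 0.79, and Lamb2 and Lamc1 0.63 and 0.84. For Lamb2, Lamc1 ranked 8 among 18819 genes in dorsal and 5 in tail skin, and for Lamc1, Lamb2 ranked 265 and 12. Lama5 and Lamc1 did not follow this: r was -0.23 in dorsal (adjusted p = 0.0401, and 0.0604 within batch 1) and 0.31 in tail skin (rho = 0.14, permutation p = 0.167).

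Of the leukocyte pairs, Itgal and Itgb2 had r = 0.48 in dorsal and 0.61 in tail skin and Itgam and Itgb2 0.49 and 0.39. Itga4 and Itgb7 had r = 0.15 (adjusted p = 0.167) and 0.24 (adjusted p = 0.0251). Itga8 and Itgb1 had r = 0.69 in dorsal and 0.42 in tail skin, and Itga9 and Itgb1 0.65 and 0.60. The epidermal partners of Itgb1 went the other way in dorsal skin, Itga2 at r = -0.44 (adjusted p = 5.28e-05) and Itga3 at -0.37 (adjusted p = 0.000849), and had r of 0.23 and 0.33 in tail skin, which fell to 0.06 and 0.15 under equal array medians and were then not called. The platelet pair Itga2b and Itgb3 had r = 0.18 (adjusted p = 0.104) and 0.28 (adjusted p = 0.00792). Itgav and Itgb5 had r = 0.14 (adjusted p = 0.211) in dorsal and 0.50 in tail skin, where rho was 0.34 and Itgb5 ranked 1731 for Itgav. This tail r pools the cluster of 9 low Itgav mice given above with the others, and r within the clusters was not computed for the pair. Itgav and Itgb6 passed in neither tissue.

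Of the 22 pairs, 6 lay within 2 larger blocks. Among Itga6, Itgb4, Lama3 and Lamb3, the 6 correlations were 0.69 to 0.80 in dorsal and 0.72 to 0.81 in tail skin. Among Lama2, Lama4, Lamb1, Lamb2 and Lamc1, the 10 correlations were 0.44 to 0.81 and 0.61 to 0.84. Between the blocks, the 20 correlations had a median of -0.46 (-0.70 to 0.01) in dorsal and of 0.17 (-0.11 to 0.35) in tail skin. The difference between the tissues was not tested.

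Marker means of the same arrays moved with the blocks. The first block correlated with the mean of 4 basal keratinocyte genes at 0.80 to 0.85 in dorsal and 0.83 to 0.86 in tail skin, and with the mean of 4 fibroblast genes at -0.75 to -0.58 and -0.18 to 0.03. The second correlated with the fibroblast mean at 0.40 to 0.91 in dorsal and 0.48 to 0.72 in tail skin. With the smooth muscle marker mean it correlated at 0.34 to 0.65 in dorsal and 0.51 to 0.66 in tail skin. That fibroblast mean spread from 8.19 to 11.19 over dorsal and from 9.73 to 10.85 over tail arrays. What the mix of cells contributes to the correlations was not tested.

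**Figure D5:**
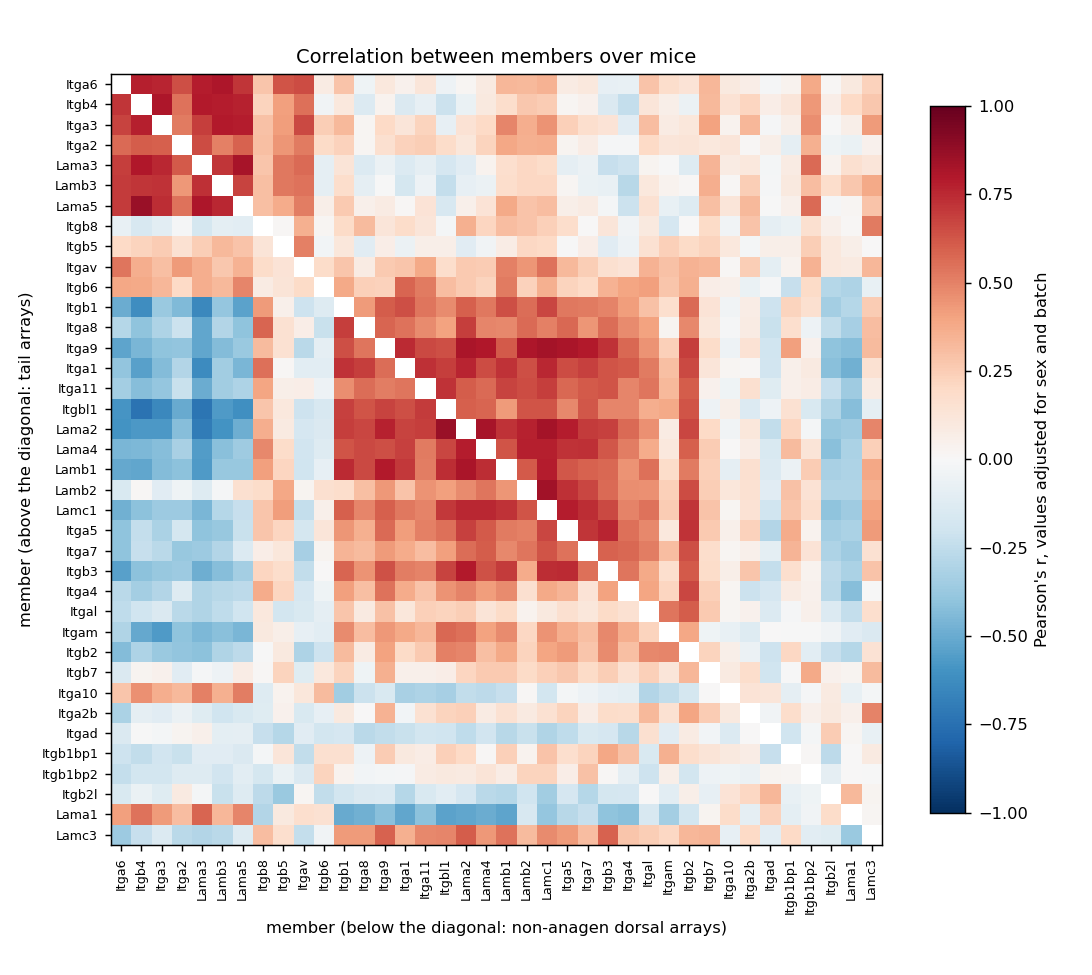
Pearson's r between members over mice, adjusted for sex and batch, with tail arrays above and non-anagen dorsal arrays below the diagonal; both axes list the 38 members in the same order, and colour runs from -1 (blue) to 1 (red). The epidermal members (top left) and the dermal and vascular members (centre) each form a red block in both tissues, and the squares that join them are blue in dorsal skin and pale in tail skin.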

How the data were processed

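The authors' deposited values are log2 expression per probe set after RMA (robust multi-array average), per the submitters' processing notes. The version of RMA and the genome build of the probe sets were not stated there. Of 35556 probe sets, 21218 name 1 gene, 1881 several and 12457 none, and the probe set with the highest mean stood for each of 18820 genes. Members and gene lists were chosen with earlier results of these data known. Groups, sex and labelled batch came from the labels, and the replicate is the mouse, sampled once per tissue. Differences were fitted with limma 3.58.1 (R 4.3.3; lmFit and eBayes, checked on simulated data), with sex as a term between tissues, sex and batch within dorsal or tail skin, and a cell per group and sex with batch for the sex effects, and Benjamini-Hochberg adjustment over all genes. Calls needed an adjusted p under 0.05 and, between tissues, 2 times. Mice pair the tissues; the replicate block, with the mouse as a random block (correlation 0.0624), was an alternative. Correlations used values adjusted for sex and batch, with 100000 permutations (Python 3.11.15, numpy 2.4.6, scipy 1.17.1), and 100 random pairings of mice over all genes for the tissue correlations. The named genes are all members, the listed genes and markers past the threshold and the most similar genes. The number of arrays limits the precision.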

Additional observations from a re-analysis of the deposited data

Results flagged for a closer look

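The effects below differed between the tissues by a test of the difference itself. The sex effect (female minus male, tail minus dorsal) differed for Itgbl1 by 1.02, for Itga7 by 0.35, for Itgav by -0.19 and for Lamb3 by -0.31. Itga7 was not called with differences within mice (0.32, limma adjusted p = 0.0901), and Lamb3 was not under equal array medians, within batches 1 and 4, or without the 5 arrays least like their group (adjusted p = 0.0702, 0.0796 and 0.0734). The anagen effect (dorsal minus tail) differed for Lamb1 by 0.60 and for Lamb3 by -0.48. The latter was not called without these 5 arrays (-0.46, adjusted p = 0.0631) or without the sex term (-0.45, 0.0566). Smooth muscle markers (6 of 6), endothelial markers (4 of 4) and fibroblast markers (2 of 4) also had a higher sex effect in tail than in dorsal skin, and their part in these differences was not tested.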

How the results depend on the processing

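Between tail and dorsal skin, calls at any size numbered 17 higher and 14 lower against non-anagen skin. Against anagen skin they numbered 14 higher and 11 lower. With only genes above the median level, 1 member was lower at 2 times in each comparison. That filter takes out genes of low level before the test. Quantile normalization turned Itga3 to -0.075, Itga6 to -0.00613, Lamb1 to -0.049 and Lamc3 to -0.058 against non-anagen skin, and Itga3 to -0.043 and Itga5 to -0.0091 against anagen skin; equal array medians turned Itga6 to -0.032. For anagen, 2 members were higher under equal medians, the level filter, no batch term, without the 5 arrays least like their group and without the anagen arrays among them. In the last 2 settings 0 were lower, while lower calls over all genes went from 676 to 216 and 201. At 2 times 0 members were higher and 0 lower. For sex in dorsal skin, higher members numbered 1 under equal medians, 2 in batch 1 and 1 with dorsal arrays alone. Lower members numbered 8 under equal medians, 5 under quantile normalization, 5 under the filter and 1 with dorsal arrays alone. In tail skin 1 was higher without the 5 arrays and 1 lower with tail arrays alone. For the difference of the sex effects 1 was higher under the filter, and 1 was lower under equal medians, within batches 1 and 4, and without the 5 arrays. For the difference of the anagen effects 2 were lower under equal medians and 0 without the sex term and without the 5 arrays. Without adjustment for sex and batch, 1 member was correlated between tissues. The cause was not tested. With the replicate block, the mouse as a random block gave 2 lower members against non-anagen and 3 against anagen skin, 3 higher and 2 lower for the sex effects, and 1 and 1 for the anagen effects; differences within mice gave 2 lower against anagen skin. The settings that leave out these arrays, or all arrays of the other tissue, were chosen after seeing the data.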

Other observations

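Some members had many of their most similar genes on their own chromosome, which was looked at after the values were seen. Of the 20 genes most correlated with Itga2b over tail arrays, 11 lie on its chromosome, which holds 7.82% of all genes, and over dorsal arrays 4 do. For Itgam the counts were 9 in tail and 4 in dorsal skin (8.75% of all genes), for Lama1 6 and 2 (4.72%) and for Itgal 5 and 0 (8.75%). Mice of a backcross inherit long stretches of each chromosome together; the part of this in the counts was not tested.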
